A study of Mus musculus with 11 samples.

Results

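The 9 genes described here belong to oligodendrocytes and myelin. Mbp, Mog, Mag, Mobp, Cnp, Mal and Cldn11 encode myelin proteins, and Olig1 and Olig2 encode transcription factors of the oligodendrocyte lineage. They were chosen by name, for their known roles, but with earlier results of these data known. Both count tables hold all 9, among 24391 genes in one and 24015 in the other. All 9 passed the filter on low counts in both comparisons.

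The data were RNA-seq of the hippocampus of C57BL/6N mice at P32 (postnatal day 32; the labels say adult) that carried a germline CRISPR/Cas9 deletion of 1b, a noncoding interval of the sodium channel gene Scn1a. In the heterozygous round, 4 1b+/- mice (3 male and, as replicate 4, 1 female; HT in the labels) were compared with 3 male WT mice. In the homozygous round, 2 1b-/- mice (replicate 1 male, replicate 2 female; KO in the labels) were compared with 2 female WT mice. The comparisons ask how expression in the hippocampus differs where 1 or both copies of 1b are deleted. The deletion was carried through the germline, the labels name no treatment, and each library came from 1 hemisphere of 1 mouse. The 1b-/- mice sampled were those that had survived to this age. The rounds differed in read type, so each mutant was set against the WT mice of its own round.

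Oligodendrocytes wrap axons of the central nervous system in myelin, a stack of lipid-rich membrane in which the cytoplasm is squeezed out of the compact layers and retained in the inner and outer tongues and in the loops beside the node of Ranvier. Olig2 and Olig1 act from the precursor stage on, whereas genes for the myelin proteins are switched on strongly as the cell matures, under SOX10 and MYRF. In the hippocampus, myelin is found mainly in the fibre tracts, the alveus and fimbria among them, and is sparser in the cell layers.

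Library totals ran from 20667122 to 36145161 counts. Expression is given as CPM, the counts of a gene relative to a fixed total per library and scaled by TMM factors within a round. The targeted gene, Scn1a, stood at 97.6 ± 15.5 CPM in 1b+/- (SD, n = 4) against 135.6 ± 31.0 in WT (n = 3), where the groups overlapped and the difference did not pass the test (log2 fold change -0.47, adjusted p = 0.303). It stood at 21.5 ± 6.80 in 1b-/- (n = 2) against 153.2 ± 27.5 in WT (n = 2), where it was called lower (-2.83, adjusted p = 0.0211). Between mice of a group, genes varied by 9.13% (common biological coefficient of variation) in the heterozygous and by 22.9% in the homozygous round. The 9 genes took 0.413% to 0.708% of a heterozygous-round library and 0.964% to 1.82% of a homozygous-round one. Several libraries differed in markers of brain regions, those of the hippocampus itself among them. The summed level of 17 striatal genes was 9618 and 4054 CPM in the homozygous-round WT mice against 432.8 and 533.8 CPM in the 1b-/- mice, and none of these genes was at 0 in either group. The summed level of 12 CA1 and CA3 pyramidal cell genes ran the other way, from 585.0 to 723.5 CPM in WT and from 1604 to 1631 CPM in 1b-/-. Of these 12 genes 5 were called higher in 1b-/- and 0 lower. Of 10 dentate granule cell genes, 6 were higher on average and 4 lower, with 3 called higher and 0 lower. Of 10 basal forebrain and septum genes, 3 were higher on average and 7 lower, with 4 called lower and 0 higher. Over all genes 2.06% were called higher and 1.52% lower. In the heterozygous round, 10 thalamic genes summed to 799.3 CPM in WT replicate 1 against 256.1 and 229.5 CPM in the other WT mice, and to between 247.8 and 597.0 CPM in 1b+/-. Choroid plexus genes varied within each group, from 56.9 to 13800 CPM over all libraries.

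The promoters of these genes are shown because the myelin genes lay on the same side of WT as each other in each comparison, as described below. A RefSeq promoter window on GRCm38.p6, 300 bases long from 250 bases before the start, was at hand for 7 of the 9 genes, with 3 windows for Mag. There was none for Mbp and Olig1. The core letters bound by SOX factors (ACAAAG and ACAATG), by MYRF (CTGGCAC and CTGGTAC) and by E-box factors such as OLIG2 (CAGCTG and CAGATG), and the TATA letters (TATAAA), were searched on both strands. Of 32851 promoter windows, 18.7% held ACAAAG, 12.6% ACAATG, 5.01% CTGGCAC, 2.24% CTGGTAC, 16.3% CAGCTG, 17.2% CAGATG and 13.6% TATAAA. The Mobp window held 6 copies of ACAAAG, all on the strand opposite to the gene and 3 of them within 30 bases. Mag and Cnp each held 1 ACAAAG and 1 CTGGCAC, and Mog held 1 CTGGTAC. The shares above are per single window, whereas Mag had 3 windows in which a match could fall. The Olig2 window held 1 ACAATG and 1 TATAAA. No match was found in the windows of Mal and Cldn11, and neither CAGCTG nor CAGATG in any of the 7 genes. Other E-box sequences were not searched. Each line below gives 30 bases on the strand of the gene, with the matched letters or their reverse complement in capitals.
Mobp, 3 copies of ACAAAG (reverse complement), chr9:120149499-120149528, plus strand: CTTTGTtcccatCTTTGTtggcCTTTGTtt
Mag, ACAAAG (reverse complement), chr7:30914972-30915001, minus strand: tgacaagggcccCTTTGTgcccccctcccc
Cnp, ACAAAG, chr11:100574760-100574789, plus strand: aacttttaaggaACAAAGaggtggcgtggc
Mag, CTGGCAC, chr7:30914913-30914942, minus strand: gcaggcggcccCTGGCACccagggggcaga
Cnp, CTGGCAC, chr11:100574847-100574876, plus strand: accgctgcttcCTGGCACtcaggtttccat
Mog, CTGGTAC (reverse complement), chr17:37023463-37023492, minus strand: agaaatgcccaGTACCAGgcagccactgct
Olig2, ACAATG (reverse complement), chr16:91225470-91225499, plus strand: ccaggaaaagcaCATTGTtcccgccccccg
The matches lie upstream of the annotated starts: the Mobp copies begin between 243 and 120 bases before the start, CTGGCAC begins 81 bases before it in Cnp, and the Mog match begins 83 bases before it. These are matches of letters, and no binding was measured.

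In the heterozygous round, all 7 myelin genes had higher mean levels in 1b+/- than in WT, by log2 fold changes of 0.31 to 0.43, and none passed the test. The 4 1b+/- mice lay close together, and the WT mice did not: WT replicate 1 had levels like those of the 1b+/- mice, and WT replicates 2 and 3 lay below all of them. Olig1 and Olig2 differed less, by 0.12 and 0.04. Of the 9 genes, 0 were called at an adjusted p under 0.05, as were 0 of all 14630 genes tested (background 0%) by edgeR's quasi-likelihood test. DESeq2 and the likelihood ratio test also called 0 of the 9, beside 0.427% and 0.239% of all genes called higher. At an unadjusted p under 0.05, 4 of the 9 were higher (Mag, Mobp, Mal and Cldn11), where 5.32% of all genes were. The groups separated completely for 0 of the 9 genes, against 4.69% of all genes with every 1b+/- value above every WT value.

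Among proteins of compact myelin, Mbp (myelin basic protein, which draws the cytoplasmic membrane faces together) was the most abundant by counts. It stood at 3772, 3860, 3510 and 4218 CPM in the 1b+/- mice and at 4099, 2645 and 2477 CPM in the WT mice. The WT values thus held one mouse within the 1b+/- range and a pair below it, and the log2 fold change was 0.32 (SE 0.156, adjusted p = 0.475). Mobp, another small basic protein of compact myelin, stood at 633.6, 565.1, 519.1 and 608.8 CPM in 1b+/- and at 590.4, 385.6 and 349.2 CPM in WT. Its log2 fold change was 0.40 (SE 0.16, adjusted p = 0.394). Mal encodes a proteolipid of myelin and of apical membranes that sorts membrane cargo. It had the largest difference of the 9, with 602.0, 530.5, 484.6 and 565.0 CPM in 1b+/- against 531.4, 339.5 and 341.3 CPM in WT (log2 fold change 0.43, SE 0.151, adjusted p = 0.335). Here too WT replicate 1 lay inside the 1b+/- range. Cldn11, the claudin of the tight junctions between myelin layers, ran from 283.7 to 328.4 CPM in 1b+/-, and stood at 316.3, 201.8 and 199.9 CPM in WT (0.37, SE 0.147, adjusted p = 0.388).

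The genes of noncompact myelin and of its surface showed the same arrangement of mice. Cnp, an enzyme of the cytoplasm-filled myelin channels, ran from 511.5 to 590.7 CPM in 1b+/- and stood at 583.8, 374.2 and 389.0 CPM in WT (log2 fold change 0.31, SE 0.139, adjusted p = 0.441). Mag, an adhesion molecule of the myelin membrane that faces the axon, ran from 263.0 to 320.4 CPM in 1b+/- and stood at 302.9, 186.0 and 192.8 CPM in WT (0.37, SE 0.155, adjusted p = 0.413). Mog, a glycoprotein of the outermost myelin surface, ran from 103.1 to 123.7 CPM in 1b+/- and stood at 121.7, 73.4 and 74.8 CPM in WT (0.35, SE 0.164, adjusted p = 0.46). The counts of Cnp may include those of another gene. Its annotated span overlaps that of the protein-coding Dnajc7 on the opposite strand, and overlap of exons was not checked. The strand setting of the counting is not given in the sources used here. Mbp and Mog also overlap an annotated gene each on the opposite strand, the pseudogene Rpl21-ps8 and a 7SK RNA.

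The lineage factors varied less between mice. Olig1 stood at 124.3, 131.2, 123.1 and 132.1 CPM in 1b+/- and at 133.6, 108.3 and 109.8 CPM in WT. WT replicate 1 was again the highest of the WT mice, with a smaller spread between them, and the log2 fold change was 0.12 (95% interval -0.0422 to 0.287; adjusted p = 0.569). Olig2 stood at 31.4, 36.9, 33.2 and 33.4 CPM in 1b+/- and at 37.6, 31.4 and 29.3 CPM in WT. Its interval ran from -0.158 to 0.238 (log2 fold change 0.04, adjusted p = 0.901). In exact 2-sided permutation tests of the mean CPM over the 35 splits of 4 and 3 mice, where the smallest possible p is 0.0286, the 9 genes gave p from 0.114 (Cldn11) to 0.743 (Olig2).

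**Figure D1:**
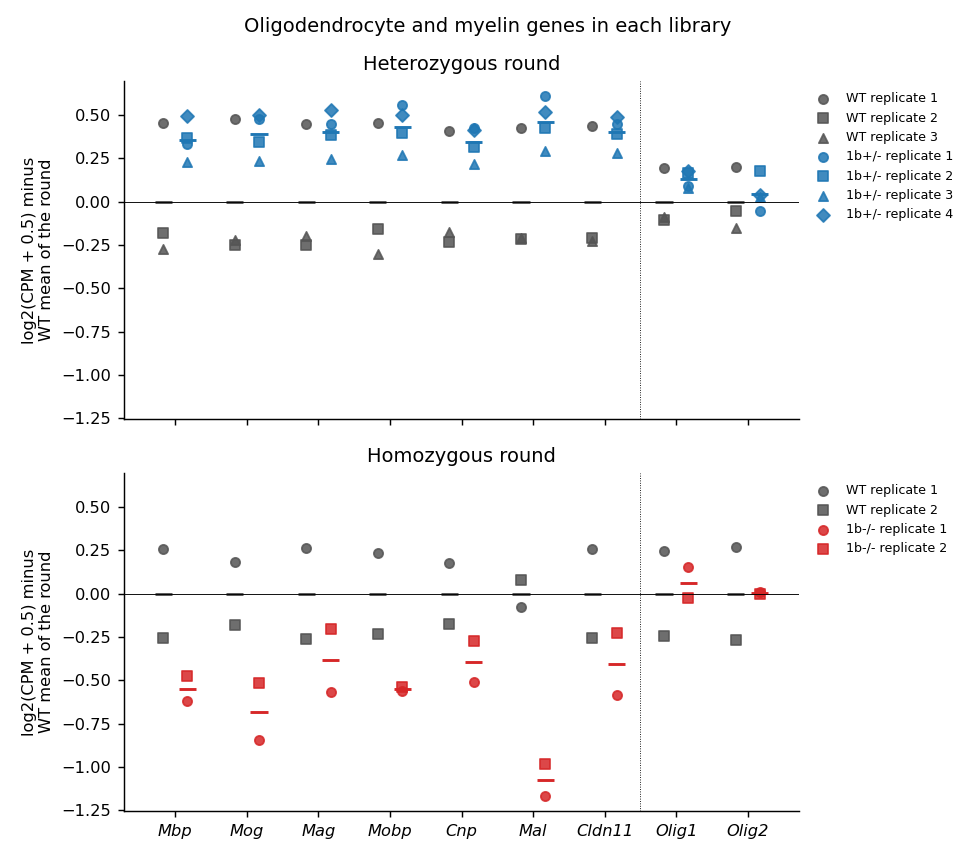
Log2(CPM + 0.5) of each gene minus the mean of the WT mice of the same round (vertical axes), with the heterozygous round above and the homozygous round below. Each symbol is 1 library, and short bars are group means. For the 7 myelin genes WT replicate 1 of the heterozygous round sits among the 1b+/- mice and the other WT mice lie below them, and Mal has the widest gap in the homozygous round, with 650.0 and 738.6 CPM in 1b-/- against 1383 and 1537 CPM in WT.

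These results turned on WT replicate 1. Without it, 8 of the 9 genes were called higher in 1b+/-, where 1.38% of 14591 genes were, and their median log2 fold change was 0.62 in place of 0.35. Mal then stood at 0.68 (adjusted p = 0.00472), Mbp at 0.58 (adjusted p = 0.00543), Cldn11 at 0.62 (adjusted p = 0.00243) and Olig1 at 0.23 (adjusted p = 0.0452), and Olig2 was not called. Leaving out any other single library of the round gave 0 calls among the 9, where at most 0.00685% of all genes were called. WT replicate 1 was also the library with the highest thalamic sum (799.3 CPM), and WT replicates 2 and 3, with 256.1 and 229.5 CPM, had the lowest myelin gene sums, 4205 and 4024 CPM against 6545 CPM in WT replicate 1. Among the 1b+/- mice, replicates 1 and 2 had thalamic sums of 247.8 and 251.0 CPM, with myelin sums of 6341 and 6209 CPM. Replicate 3 had 404.2 CPM with the lowest 1b+/- myelin sum, 5675 CPM, and replicate 4 had 597.0 CPM with the highest, 6750 CPM. The part of neighbouring tissue in these values was not tested. In bulk tissue, fewer oligodendrocytes and less RNA per oligodendrocyte cannot be told apart.

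In the homozygous round the 7 myelin genes went the other way. All were lower on average in 1b-/- than in WT, by log2 fold changes of 0.40 to 1.07, whereas Olig1 and Olig2 differed by less than 0.1. Mal was called lower, and the other 8 genes did not pass the test: 1 of 9 called, beside 1.52% of 14838 genes called lower. At an unadjusted p under 0.05, 3 of the 9 were lower (Mog, Mobp and Mal), beside 12.8% of all genes. The groups separated completely for 5 of the 9 (Mbp, Mog, Mobp, Cnp and Mal), beside 30.2% of all genes with both 1b-/- values below both WT values.

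Mal stood at 650.0 and 738.6 CPM in the 1b-/- mice and at 1383 and 1537 CPM in the WT mice. Both 1b-/- values were below both WT values, the ratio of the means was 0.475, and the log2 fold change was -1.07 (SE 0.168, adjusted p = 0.0416). The call was lost with sex as a covariate (-0.98, adjusted p = 0.0919), where 2.14% of all genes were called lower. It was not kept without any 1 of the 4 libraries either, but such fits leave 1 mouse in a group and cannot decide it. In them the log2 fold change of Mal stayed between -1.17 and -0.98. Both WT mice of this round were female, so sex was not balanced between the groups. In WT replicate 2 Mal was the only myelin gene above its level in WT replicate 1.

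Mbp stood at 6945 and 7652 CPM in 1b-/- and at 12730 and 8921 CPM in WT, with a log2 fold change of -0.57 (SE 0.271, adjusted p = 0.251). The WT mice differed from each other by more than the 1b-/- mice did. Mobp was at 631.4 and 643.8 CPM in 1b-/- and at 1097 and 795.2 CPM in WT (-0.57, SE 0.201, adjusted p = 0.158). For Cldn11 the groups overlapped, with 275.4 and 352.2 CPM in 1b-/- and 493.3 and 345.1 CPM in WT (-0.42, SE 0.228, adjusted p = 0.302).

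Mog had the second largest difference, 117.6 and 148.2 CPM in 1b-/- against 240.9 and 186.6 CPM in WT (log2 fold change -0.69, SE 0.189, adjusted p = 0.106). Mog was called by the likelihood ratio test (adjusted p = 0.0294) and, with Mobp, by DESeq2 (adjusted p = 0.0167 and 0.0414). In the fit of all 11 libraries, which called 18.4% of all genes lower, Mog was called as well as Mal. Cnp was at 586.3 and 690.5 CPM in 1b-/- and at 945.0 and 739.3 CPM in WT (-0.40, SE 0.19, adjusted p = 0.251). Mag was at 397.7 and 511.7 CPM in 1b-/- and at 707.3 and 491.1 CPM in WT, so that its groups overlapped (-0.40, SE 0.236, adjusted p = 0.335). Across the myelin genes other than Mal, WT replicate 1 was the highest of the 4 mice.

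Olig1 stood at 229.1 and 202.1 CPM in 1b-/- and at 244.3 and 173.5 CPM in WT, and Olig2 at 54.2 and 53.8 CPM in 1b-/- and at 64.9 and 44.7 CPM in WT. For both genes the 1b-/- mice lay between the WT mice. The 95% intervals of the log2 fold changes, -0.452 to 0.544 for Olig1 and -0.528 to 0.486 for Olig2, still allow differences as large as those of several myelin genes. An exact permutation test over the 6 splits of 2 and 2 mice cannot go below p = 0.333, and it gave that value for the 5 genes whose groups separated.

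The striatal sum separated the 2 groups of this round, and the WT mice were the ones that stood out in the series. In the heterozygous round, scaled on its own, it ran from 483.7 to 694.8 CPM in WT and from 430.5 to 489.5 CPM in 1b+/-, near the 1b-/- values. All 17 striatal genes tested were lower in 1b-/-, with a median log2 fold change of -4.29. Of them, 13 were called, beside 1.52% of all genes called lower. WT replicate 1, with the highest level of 6 of the 7 myelin genes, had a striatal sum of 9618 CPM, and WT replicate 2, with the highest level of Mal, 4054 CPM. The part of striatal tissue in the lower myelin gene levels of 1b-/- was not tested, and with both WT libraries high it cannot be told apart from genotype. Of other glial and vascular lists, all 8 endothelial genes were lower on average in 1b-/- (median log2 fold change -0.49). At an unadjusted p under 0.05, 4 of the 8 were lower, beside 12.8% of all genes. Their summed level was 199.7 and 185.6 CPM in 1b-/- against 309.5 and 246.1 CPM in WT. Of 10 microglia genes 9 were lower on average (median -0.22), with sums of 598.3 and 490.0 CPM against 655.4 and 641.3 CPM. The 12 astrocyte genes had a median of 0.06 and sums that overlapped between the groups. None of these genes was called, where 2.06% of all genes were called higher and 1.52% lower, and the part of such other cell types in the myelin gene levels was not tested.

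**Figure D2:**
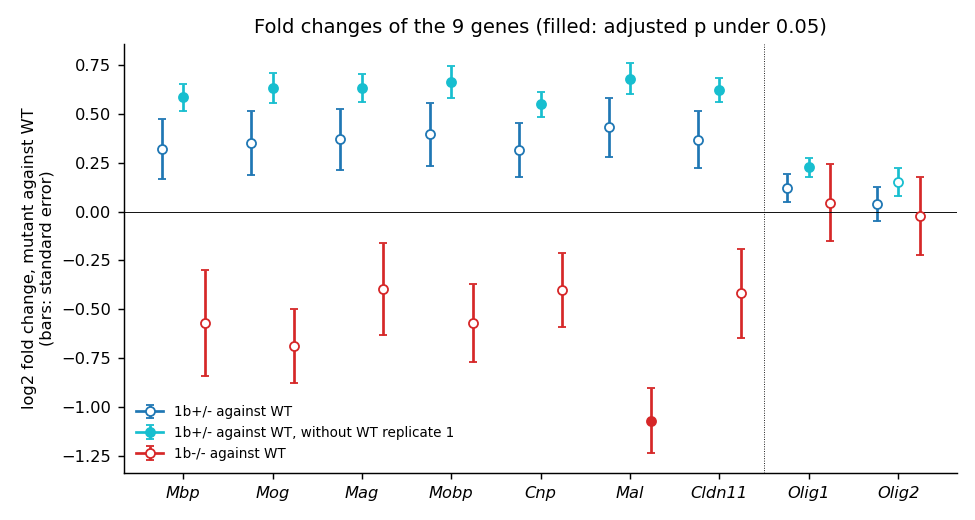
Log2 fold change against WT of the same round (vertical axis) for each gene, with bars for the standard error, for 1b+/-, for 1b+/- without WT replicate 1, and for 1b-/-. Filled points passed the test at an adjusted p under 0.05. The 7 myelin genes lie above 0 in 1b+/- and below 0 in 1b-/-, and only Mal is filled for 1b-/-.

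Whether the changes differed between the genotypes was tested in 1 fit of all 11 libraries, as the change in 1b-/- minus the change in 1b+/-. It was negative for all 9 genes and was called for 4 of them, beside 13% of 14905 genes called in this direction and 27.3% in either. The likelihood ratio test and DESeq2 each called 7, beside 12.9% and 13.9% of all genes. The difference was -1.51 for Mal (SE 0.247, adjusted p = 0.00206), -1.05 for Mog (SE 0.287, adjusted p = 0.022), -0.97 for Mobp (SE 0.281, adjusted p = 0.0274) and -0.90 for Mbp (SE 0.286, adjusted p = 0.0404). It did not pass for Cldn11 (-0.80, adjusted p = 0.0615), Mag (-0.78, adjusted p = 0.0768) and Cnp (-0.72, adjusted p = 0.0528). For Olig1 it was -0.08 (95% interval -0.499 to 0.331) and for Olig2 -0.07 (-0.517 to 0.378). Mal was called in all 18 alternatives tried. The count of 4 fell to 1 with sex as a covariate (10.2% of all genes then called lower), without WT replicate 3 of the heterozygous round (8.81%), without WT replicate 1 of the homozygous round (15.9%) and without 1b-/- replicate 1 (13.6%). It fell to 2 without WT replicate 2 of the heterozygous round (10.1%) and without 1b-/- replicate 2 (10.5%), and rose to 7 without WT replicate 1 of the heterozygous round (12.4%) and without WT replicate 2 of the homozygous round (12.9%). Every alternative kept at least 1 of the 2 homozygous-round WT libraries, where Mal stood highest against the other myelin genes (0.443 and 1.05, described below). They cannot show how far its result rests on these libraries. Genotype and round cannot be told apart in this contrast beyond what the WT mice of each round correct for. Those WT mice differed in striatal sums, 483.7 to 694.8 CPM in the heterozygous and 4054 to 9618 CPM in the homozygous round. The part of this in the contrast was not tested.

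The myelin genes and the lineage factors can be set against each other within a library, which removes the depth of the library. The mean log2(CPM + 0.5) of the 7 myelin genes minus that of Olig1 and Olig2 was 3.04, 2.79, 2.79 and 2.97 in the 1b+/- mice and 2.83, 2.45 and 2.48 in their WT mice. In the homozygous round it was 2.37 and 2.698 in 1b-/- and 3.07 and 3.21 in WT. WT replicate 1 of the heterozygous round lay within the 1b+/- range, and in the homozygous round the groups did not overlap. The difference of the means was 0.31 for 1b+/- and -0.61 for 1b-/-. With each library left out in turn it stayed between 0.243 and 0.433 and between -0.775 and -0.445. These are descriptions of the chosen genes and carry no test.

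**Figure D3:**
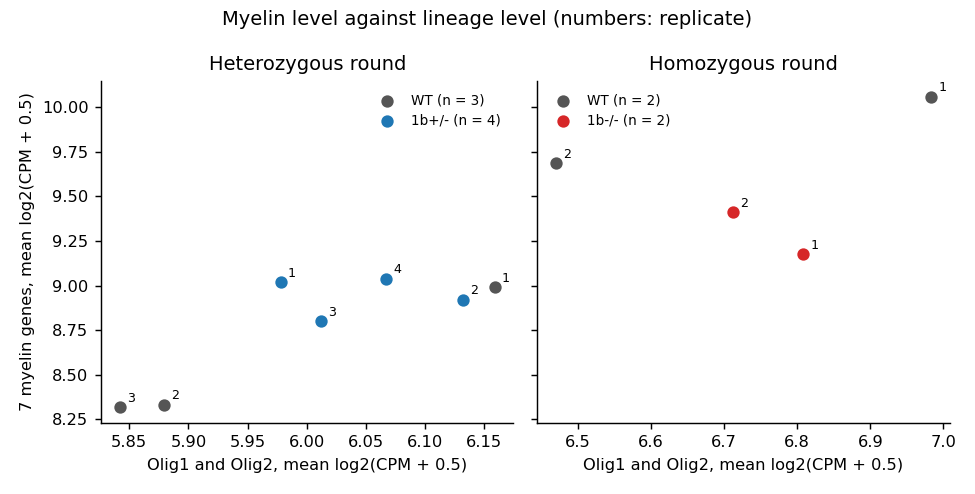
Mean log2(CPM + 0.5) of the 7 myelin genes (vertical axis) against that of Olig1 and Olig2 (horizontal axis), with 1 point per library, the replicate number beside it and 1 panel per round. The horizontal scales of the panels differ. WT replicate 1 of the heterozygous round lies beside the 1b+/- mice, and the 1b-/- mice lie below both WT mice on the vertical axis and between them on the horizontal one.

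Mal stood apart from the other myelin genes in the homozygous WT mice. Its log2 level minus the mean of the other 6 myelin genes was between 0.122 and 0.252 in the 1b+/- mice, between 0.0741 and 0.116 in their WT mice, and 0.197 and 0.139 in the 1b-/- mice. In the other WT mice it was 0.443 and 1.05. Only these WT libraries exceeded 0.3, and the 1b-/- libraries lay within the range of the heterozygous round.

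Levels of different genes were compared per kilobase of merged exons (RPKM, on mm9 annotation). Mbp, on chromosome 18, has 16 annotated transcripts in 13 merged exons, and Olig1 a single exon. Olig2 (chr16:91225795-91228922) and Olig1 (chr16:91270014-91272184) are neighbours on the plus strand of mm9, and Mal lies on the minus strand at chr2:127458962-127482431. In heterozygous-round WT mice the order was Mbp at 365.8 ± 106.1 RPKM (SD, n = 3), Mal at 145.5 ± 39.7, Cldn11 at 129.8 ± 36.1, Cnp at 123.4 ± 32.1, Mag at 93.6 ± 27.0, Mobp at 68.0 ± 20.01, Olig1 at 54.0 ± 6.54, Mog at 52.9 ± 16.2 and Olig2 at 13.4 ± 1.76. Of the neighbours in that order, only Mbp and Mal, and Mog and Olig2, had ranges that did not overlap. In homozygous-round WT mice Mbp was again first, at 1288 ± 320.5 RPKM (n = 2), then Mal at 525.6 ± 39.2, and Olig2 last at 22.5 ± 5.86. There Mag (246.9), Cnp (231.4) and Cldn11 (227.3) overlapped, as did Mobp (145.6), Mog (125.7) and Olig1 (96.2) with their neighbours among these. In 1b+/- the order was that of their WT mice, except that Mog (67.6) stood above Olig1 (58.8) with overlapping ranges. In 1b-/- Mal (249.9) remained second, and Olig1 (99.3) stood level with Mobp (98.1).

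**Figure D4:**
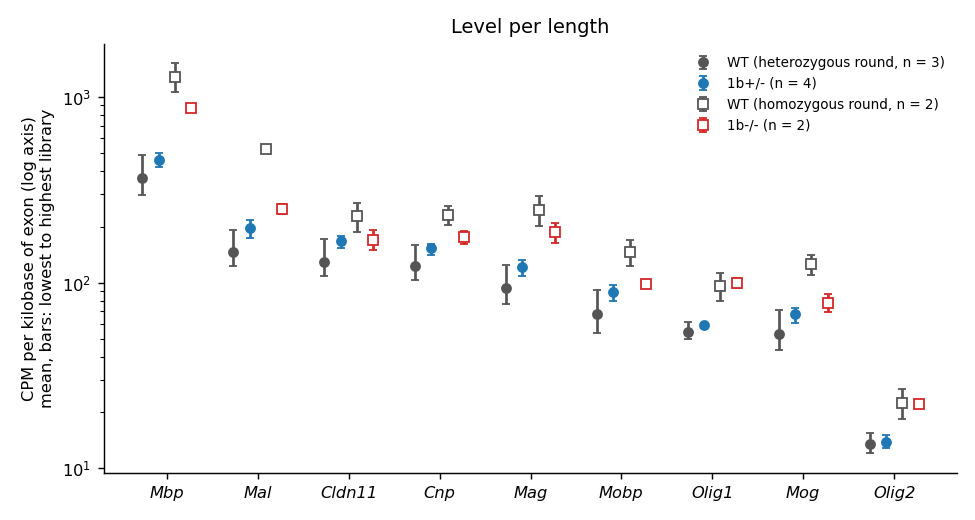
CPM per kilobase of merged exons (log axis) of the 9 genes in the 4 groups, with symbols for the mean and bars from the lowest to the highest library. Mbp is highest and Olig2 lowest in every group.

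Other genes of mature oligodendrocytes mostly had the direction of the myelin genes. Of 27 such genes, all 27 had a log2 fold change above 0 in 1b+/- (median 0.32, against a median of 0.00 over all genes). Of them 0 were called, beside 0% of all genes, and 9 had an unadjusted p under 0.05, beside 5.32% of all genes. Without WT replicate 1, 20 of the 27 were called higher, beside 1.38% of all genes. Myrf, the transcription factor that switches on myelin genes, was at 88.4 ± 5.43 CPM in 1b+/- and 67.5 ± 15.9 in WT (0.39, adjusted p = 0.321), and Plekhh1 at 55.7 ± 3.98 and 39.5 ± 12.5 (0.49, adjusted p = 0.327). In 1b-/-, 25 of the 27 had a log2 fold change below 0 (median -0.51) and 3 were called lower, a share to be read beside the 1.52% of all genes. These were Ermn, a cytoskeletal protein of myelinating cells (80.4 ± 11.8 against 188.3 ± 18.7 CPM; -1.23, adjusted p = 0.0299), Aspa, which breaks down N-acetylaspartate (14.9 ± 1.27 against 31.6 ± 1.47 CPM; -1.09, adjusted p = 0.0333), and Gjc3, a connexin (64.8 ± 2.40 against 127.4 ± 17.2 CPM; -0.97, adjusted p = 0.0349). Gjc3 was named after its value was seen. The likelihood ratio test called 12 of the 27 (5.7% of all genes) and DESeq2 13 (6.54%). Fits without 1 library leave 1 mouse in a group, and they called no more of the 27 than the main fit. The difference between the genotypes was called for 17 of the 27, all of them negative, beside 13% of all genes, and for 7 with sex as a covariate, beside 10.2%.

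Genes of earlier stages were mixed. Over all genes, 0% were called in 1b+/-, and 1.52% were called lower and 2.06% higher in 1b-/-. Among 14 genes of precursors and newly formed oligodendrocytes the median log2 fold change was 0.02 in 1b+/- and -0.24 in 1b-/-, with 0 called in either. Enpp6, a gene of newly formed oligodendrocytes, was at 17.04 ± 2.79 CPM in 1b-/- and 32.1 ± 1.36 CPM in WT (-0.91, adjusted p = 0.0578). Lhfpl3 had a log2 fold change of -0.30 in 1b+/- (adjusted p = 0.372) and -0.86 in 1b-/- (adjusted p = 0.0682), and Itpr2 one of 0.16 in 1b+/- (adjusted p = 0.463). Of 11 further transcription factors of the lineage, 0 were called in either comparison (medians 0.06 and -0.25). In 1b+/- Nkx6-2 had a log2 fold change of 0.52 (adjusted p = 0.275). In 1b-/- Id4, an inhibitor of basic helix-loop-helix factors, had one of -0.80 (adjusted p = 0.088) and Sox8, a relative of Sox10, one of -0.51 (adjusted p = 0.13).

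The counts of lipid genes are also to be read beside 0% of all genes called in 1b+/-, and 1.52% called lower and 2.06% higher in 1b-/-. Among 9 genes of galactolipid and sphingolipid synthesis, 0 were called in 1b+/- (median 0.18) and 1 in 1b-/- (median -0.22). This was Ugt8a, the enzyme that makes the galactocerebroside of myelin, at 102.0 ± 9.62 CPM in 1b-/- and 216.2 ± 17.9 CPM in WT (-1.08, adjusted p = 0.0291), and at 160.9 ± 18.6 CPM in 1b+/- and 122.8 ± 32.4 CPM in WT (0.39, adjusted p = 0.382). Elovl7, a fatty acid elongase, had a log2 fold change of 0.56 in 1b+/- (adjusted p = 0.314), and Smpd1, the acid sphingomyelinase, one of 0.46 in 1b-/- (adjusted p = 0.103). Of 18 genes of cholesterol synthesis 17 were tested and 0 called in either comparison, with medians of 0.03 and -0.01. Hmgcs1, the untested one, was at 0 counts in every library. In 1b+/- Idi1 had a log2 fold change of 0.19 (adjusted p = 0.284) and Hsd17b7 one of 0.15 (adjusted p = 0.404). In 1b-/- Cyp51 had one of -0.63 (adjusted p = 0.0614) and Dhcr7 one of 0.38 (adjusted p = 0.159).

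Of 12 genes of the axon-glia junction and the node of Ranvier, 11 lay above 0 in 1b+/- (median 0.16) and 9 below 0 in 1b-/- (median -0.10), with 0 called. For this list and the next 2, the shares of all genes called were 0% in 1b+/-, and 1.52% lower and 2.06% higher in 1b-/-. Nfasc, the neurofascin of nodes and paranodes, had a log2 fold change of 0.28 in 1b+/- (adjusted p = 0.297). Ank3, the scaffold of nodes and axon initial segments, which neurons express, had one of 0.20 in 1b+/- (adjusted p = 0.268) and one of -0.49 in 1b-/- (adjusted p = 0.0877). Adam23 had one of -0.62 in 1b-/- (adjusted p = 0.0645). Growth factors and receptors of the lineage gave 0 calls among 13 genes tested in 1b+/- and 12 in 1b-/-. Erbb3, a neuregulin receptor, had a log2 fold change of 0.55 in 1b+/- (adjusted p = 0.259) and -0.99 in 1b-/- (adjusted p = 0.0789). Adgrg1, a receptor of precursors, had one of -0.19 in 1b+/- (adjusted p = 0.262), and Lingo1, a neuronal and oligodendrocyte inhibitor of differentiation, one of 0.77 in 1b-/- (adjusted p = 0.0737). Markers of peripheral myelin, which Schwann cells make, were low, with a summed level of 6 genes of 21.0 to 58.7 CPM over the libraries. Of the 4 tested in 1b-/-, Egr2, also an activity-regulated gene of neurons, was called lower (-3.21, adjusted p = 0.0238), and was named after its value was seen.

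**Figure D5:**
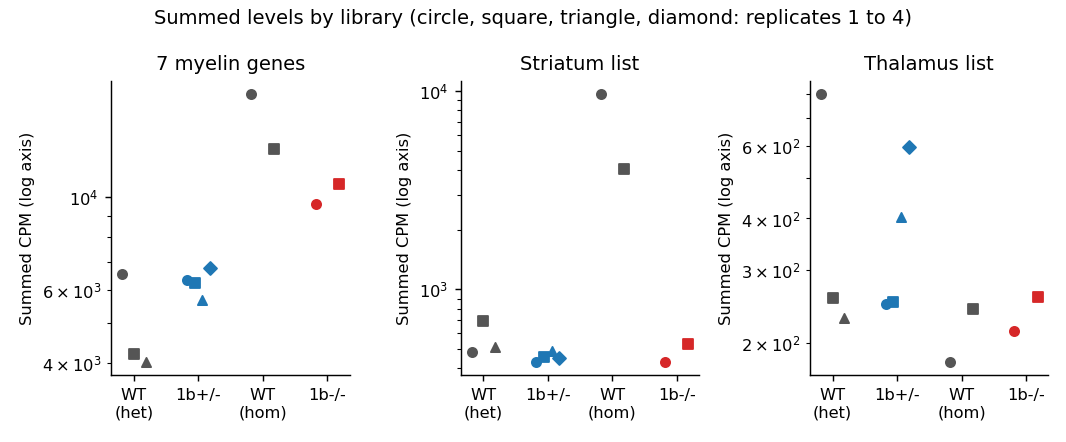
Summed CPM (log axes) of the 7 myelin genes, the striatal list and the thalamic list in each library, with symbol shapes for the replicates. In the homozygous round the WT mice are high in both the myelin sum (13020 and 17600 CPM) and the striatal sum (4054 and 9618 CPM), and in the heterozygous round WT replicate 1 has the highest thalamic sum, 799.3 CPM.

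The genes whose pattern was most like the mean of the 7 myelin genes were found by the root mean square difference of log2 levels over the 11 libraries, with each round centred on its WT mean. Of 8771 genes at an average log2 CPM of at least 4, the 6 nearest were Cntn2 (0.0527), Prr18 (0.0558), Mcam (0.0594), Litaf (0.0864), Myo1d (0.0887) and Trf (0.104), where the median gene was at 0.429. The libraries share depth, dissection and sequencing round, so these distances are descriptions. Each of the 7 myelin genes is part of the myelin mean, which by itself draws its distance down. Their distances are thus not comparable with those of genes outside the mean. The nearest of them were Mog (0.0525), Mbp (0.0598) and Mobp (0.0632), and Mal lay at 0.244. Olig1 and Olig2, which are outside the mean, lay at 0.347 and 0.354, below the median of 0.429 over the 8771 genes.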

How the data were processed

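RNA-seq of the hippocampus of 11 mice was analysed. The deposited values are raw counts per gene: the authors used STAR 2.7.2 (mm9) and featureCounts, unnormalized and unfiltered. Each table holds 27 gene symbols turned into dates (0.300% to 0.372% of counts), left out where the tables were joined. Genes that reached 1 CPM in any library were tested in edgeR 4.0.16 (R 4.3.3) by the quasi-likelihood test with TMM factors and Benjamini-Hochberg adjustment over all genes (threshold 0.05), genotype being the only term. The difference between genotypes used all 11 libraries and the 23644 genes that both tables hold. The standard error is the absolute log2 fold change over the square root of the F statistic. Depth leaves counting error small for these genes, so the spread between mice limits precision. Alternatives were the likelihood ratio test, DESeq2 1.42.0, other factors and filters, sex, a fit over all 11 libraries, and leaving out single libraries. The code was tested on simulated data. Levels per kilobase used mm9 GENCODE exons, and promoters came from RefSeq.

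The 9 genes and the other lists were chosen with earlier results of these data known. Named besides the 9 were, by rule, the 2 genes of each oligodendrocyte or myelin list with the smallest p in each comparison and the 6 genes nearest in pattern. A gene that this rule selects is not reported here.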

Additional observations from a re-analysis of the deposited data

Results flagged for a closer look

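The change differed between 1b-/- and 1b+/- in the fit of all 11 libraries for these genes among those given with values above, listed by the log2 change in 1b-/- minus that in 1b+/- at an adjusted p under 0.05 by edgeR's quasi-likelihood test. Of the 9 genes these were Mal (-1.51), Mog (-1.05), Mobp (-0.974) and Mbp (-0.898). Of mature oligodendrocyte genes they were Ermn (-1.56), Aspa (-1.46), Gjc3 (-1.37), Plekhh1 (-1.3), Trf (-1.17) and Myrf (-0.782). Ugt8a (-1.48), Erbb3 (-1.56), Enpp6 (-1.09), Idi1 (-0.856), Ank3 (-0.699), Id4 (-0.693), Adam23 (-0.675), Cyp51 (-0.673) and Sox8 (-0.576) also had a negative difference, as had Egr2 (-3.16) and the targeted gene Scn1a (-2.36). Of the genes nearest in pattern, which were chosen for their likeness to the myelin genes in the same libraries, Myo1d (-1.11), Mcam (-0.919), Prr18 (-0.909), Litaf (-0.9) and Cntn2 (-0.877) passed, besides Trf. Lingo1 (0.902), Smpd1 (0.412) and Dhcr7 (0.334) went the other way. Such differences were common over the transcriptome, at 27.3% of 14905 genes, and round and genotype cannot be told apart beyond the correction by each round's WT mice. The WT mice of the rounds themselves differed in striatal sums and in CA1 and CA3 sums. The latter were 1113 to 1308 CPM in the heterozygous and 585.0 to 723.5 CPM in the homozygous round. The part of this in the listed differences was not tested. Among the 4 1b+/- mice, the only group large enough to be checked for a stray library, 0 of the named genes had one.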

How the results depend on the processing

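The 7 myelin genes kept their direction under all alternatives run (15 for 1b+/-, 12 for 1b-/- and 18 for the difference). In 1b+/-, 0 of the 9 genes were called throughout, except for 8 without WT replicate 1, where 1.38% of all genes were called higher. Without any other single library, at most 0.00685% of all genes were called. In 1b-/-, the 1 call became 2 with the likelihood ratio test (5.7% of all genes called lower) and 3 with DESeq2 (6.54%). It became 2 with all 11 libraries in 1 fit (18.4%) and 0 with sex as a covariate (2.14%). The call was not kept without any 1 library, in fits that leave 1 mouse in a group. For the difference, the 4 calls became 7 with the likelihood ratio test (12.9% of all genes called lower), 7 with DESeq2 (13.9%), 1 with sex as a covariate (10.2%), and 1 to 7 without a library. The cause was not tested. Olig1 and Olig2 changed sign. Olig2 in 1b+/- stood at -0.00546 without replicate 2 and -0.0325 without WT replicate 3 (leave-one-out range -0.0325 to 0.152). Olig1 in 1b-/- stood at -0.0474 with sex as a covariate, and at -0.18 and -0.0465 without WT replicate 2 and 1b-/- replicate 1 (range -0.18 to 0.317). Olig2 in 1b-/- stood at 0.277 without WT replicate 1 (range -0.265 to 0.277). The difference ranged from -0.319 to 0.221 for Olig2 (0.00357 without WT replicate 3 of the heterozygous round) and from -0.315 to 0.18 for Olig1 (0.0107 without 1b-/- replicate 2). Where a group was left with 1 library, that library was assumed to vary like the others. The alternatives for genes outside the 9 were chosen after seeing the data. No paired analysis was possible because the labels number the mice in 1 series and tie no mutant to a WT mouse.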
